A study of Mus musculus with 12 samples.

Results

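The 44 genes described here encode the proteins that license replication origins and then drive the replication fork: the origin recognition complex, the helicase loaders and their inhibitor geminin, the MCM2-7 helicase, the factors that activate it, the replicative polymerases with primase, the sliding clamp and its loaders, the Okazaki fragment enzymes, the single-strand binding protein RPA and the chromatin assembly factor CAF-1. They were listed by symbol and role, with no threshold on their values but with earlier results of these data known, and each was found as 1 row, by its Ensembl identifier, among the 15651 genes of the deposited RNA-seq table. Leukemic splenocytes came from moribund mice of 2 genotypes, Dnmt3a fl/fl Flt3 ITD/ITD Mx1-Cre (D/F) and Tet2 fl/fl Flt3 ITD/ITD Mx1-Cre (T/F), with 3 mice per genotype. Both genotypes therefore carry the Flt3 internal tandem duplication, and there was no group without it. The cells were enriched for c-Kit (CD117) with magnetic beads and cultured with SCF, IL6 and IL3. A culture from each mouse was exposed for 6 hours to CCS1477 (inobrodib), an inhibitor of the bromodomains of the coactivators p300 and CBP, and another to DMSO as vehicle, giving 12 libraries. The D/F cultures received 4 µM and the T/F cultures 2 µM, so genotype and dose cannot be told apart. Mx1-Cre is an interferon-inducible transgene, and according to the methods of the study neither the D/F nor the T/F mice were given pIpC, so that in both genotypes recombination rested on Cre activity without induction and could take 1 or both floxed alleles. Values are in TPM, an abundance scaled for library size and transcript length, so levels can be set side by side between genes.

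In G1, the origin recognition complex binds DNA and, with Cdc6 and Cdt1, loads MCM2-7 onto it as an inactive ring, which is the licence to replicate. At the start of S phase, kinases and a set of firing factors add Cdc45 and the GINS complex to that ring and make it an active helicase, while geminin binds Cdt1 and prevents a second round of loading. Primase and polymerase alpha then start each strand, polymerases delta and epsilon extend it on the PCNA clamp, and Fen1 and Lig1 join the lagging-strand pieces. Many of these genes are known targets of E2F factors and are transcribed around the G1 to S transition in dividing cells such as leukemic progenitors. In RNA from bulk cultures, fewer cells in S phase and less RNA of these genes in each cell cannot be told apart.

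With CCS1477, some replication genes fell and others rose in T/F cells, each by less than 2-fold, and 0 passed in D/F cells. In T/F cells, 9 members fell (Orc1, Orc2, Cdc6, Cdt1, Mcm5, Mcm10, Pold1, Pold2 and Rpa2) and 8 rose (Gins4, Ticrr, Prim1, Prim2, Pcna, Rfc5, Lig1 and Rpa3), at a limma adjusted p under 0.05 over all genes tested. These are 20.5% and 18.2% of the 44, where 17.6% of all 15256 genes tested were called lower and 25.8% higher, so neither share is a result about the members as a set. In D/F cells 0 members passed in either direction, against 6.51% of all genes called lower and 5.14% called higher. At an unadjusted p under 0.05 the D/F count was 1 member lower and 0 higher, beside 30.4% of all genes. The median log2 fold change of the members was -0.11 for D/F and -0.030 for T/F, beside 0.057 and 0.075 over all genes tested. The number of members called at more than 2-fold was 0 in both genotypes, a rule passed by 7.28% of all genes for D/F and by 7.33% for T/F, and the 95% interval of the fold change lay within 2-fold for all 44 members in T/F and for 32 of 44 in D/F.

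The 2 genotypes had the same sign for 39 of the 44 members, and all 17 members called in T/F had that sign in D/F. The share of all genes with the same sign was not counted, so this is no result about the members as a set. By mouse, 15 members were lower in all 6 and 7 higher in all 6, beside 24.2% and 31.8% of all genes. The members with opposite signs were Mcm4, Mcm7, Pold3, Chaf1a and Chaf1b, and none of the 5 was called in either genotype. The difference between the responses, tested as an interaction over all 12 libraries, passed for 0 members and for 0 of all 15583 genes tested, and 0 members were under 0.05 before adjustment, where 4.23% of all genes were. Over both genotypes together, 7 members fell and 6 rose (19.6% and 25.8% of all genes), and these 13 were among the 17 called in T/F. The other 4, Cdc6, Mcm5, Lig1 and Rpa3, did not pass in that fit.

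**Figure D1:**
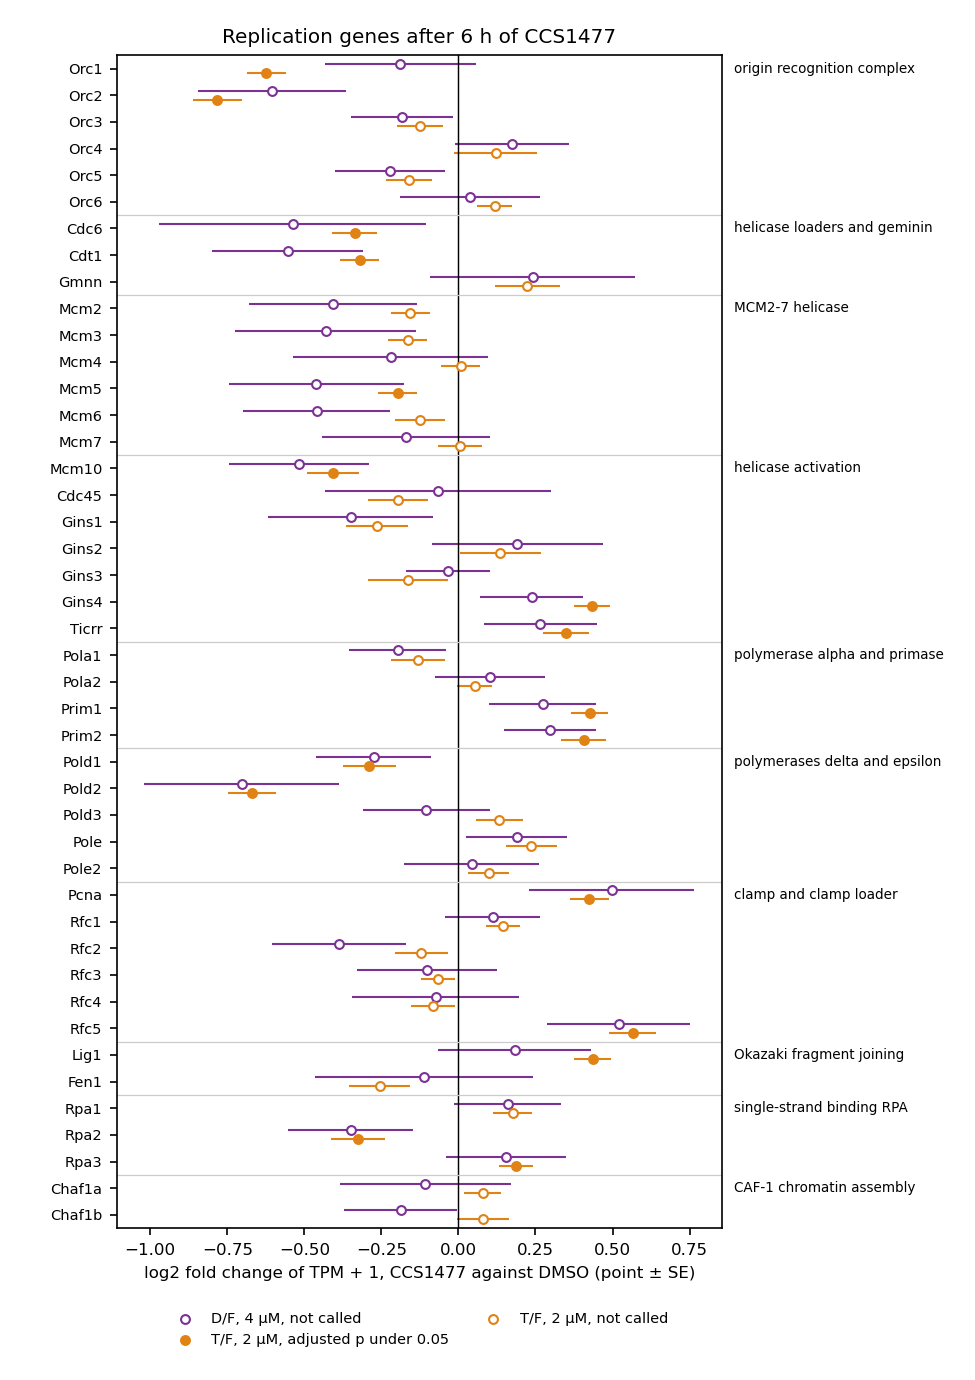
Log2 fold change of TPM + 1 (x axis) for each of the 44 genes (y axis, grouped by role), CCS1477 against DMSO, with the standard error from 3 against 3 libraries, purple for D/F at 4 µM and orange for T/F at 2 µM. Filled points passed an adjusted p of 0.05, which 17 genes did in T/F and 0 in D/F, and the D/F error bars are longer, with a median SE of 0.23 against 0.074 in T/F.

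Replicate numbers in the labels mark the mouse, and the CCS1477 and DMSO libraries of a mouse deviated together, so the responses were also fitted with the mouse as a block. In D/F this gave 4 members lower, Orc2, Cdt1, Mcm10 and Pold2, and 0 higher, beside 18% of all genes lower and 21.4% higher. All 4 were among those that fell in T/F. Over both genotypes the block gave 12 lower and 11 higher, beside 25.9% and 34.5% of all genes, and Orc1 was no longer among them. Orc3, Orc5, Cdc6, Mcm2, Mcm5 and Gins1 were added to those that fell, and Gmnn, Pole, Lig1, Rpa1 and Rpa3 to those that rose. In T/F it gave 11 lower and 10 higher (22.9% and 31.2% of all genes), within 1.5 times the counts without it, with Cdc45 and Fen1 added to those that fell and Gmnn and Pole to those that rose.

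How libraries were scaled and fitted changed which members passed in T/F. Rescaling to the same median gene called 9 lower and 6 higher, beside 20.6% and 20% of all genes, with Mcm5, Ticrr and Rpa3 lost and Orc3 gained. Over both genotypes this rescaling called 9 lower and 2 higher, beside 22% and 23.1% of all genes. Quantile normalization called 7 lower and 12 higher, beside 18.5% and 25.8% of all genes, with Mcm5 and Pold1 lost and Pold3, Pole, Rfc1 and Rpa1 gained. A fit that took 1 estimate of the spread from all 4 groups called 2 lower (Orc1 and Orc2) and 4 higher (Gins4, Prim1, Prim2 and Rfc5), beside 10.5% and 13.8% of all genes. For D/F that fit called 4 lower (Orc2, Cdt1, Mcm10 and Pold2) and 1 higher (Rfc5), beside 14.4% and 17.5% of all genes.

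The libraries of D/F mouse 2 stood apart. Under DMSO, 33 of the 44 members were below their mean over the other 5 DMSO libraries in that mouse, with a median difference of -0.24 on the log2 scale, while the median over all genes was 0.23. Among the D/F DMSO libraries, the markers of c-Kit+ myeloid progenitors divided in that mouse. Kit was highest there, at 149 TPM against 50.5 and 60.9 TPM in the others, as were Cd34, Flt3, Myb, Gata2 and Meis1. Mpo, Elane, Prtn3 and Ctsg were lowest there, and all 10 markers summed to 4246 TPM, the lowest of the group. The 4 megakaryocyte markers summed to 212 TPM there, the highest of the group, whose lowest was 34.9 TPM. The 6 neutrophil markers summed to 2675 TPM there, the lowest of the D/F DMSO group, whose highest was 9379 TPM. The part of these differences in the replication genes was not tested. Without this mouse, the D/F comparison called 1 member lower (Orc1) and 2 higher (Pcna and Rfc5), beside 10.8% and 13.8% of all genes, and the median of the members moved to 0.0068. With the block and without this mouse it called 5 lower and 2 higher (15.2% and 17.8% of all genes). Without D/F mouse 1 or mouse 3, 0 genes of the whole table were called. The fit over both genotypes called 14 lower and 11 higher without D/F mouse 2 (22.8% and 32.6% of all genes), and 4 lower and 4 or 5 higher without any one T/F mouse (15.9% to 16.3% and 20.4% to 20.8% of all genes). Within T/F, 4 members were called lower and 4 higher without mouse 1, beside 10.1% and 12.7% of all genes. Without mouse 2 the counts were 3 and 4 (9.47% and 11.5% of all genes), and without mouse 3 they were 5 and 6 (14.5% and 19.2% of all genes). Orc1, Orc2, Pold2, Gins4, Rfc5 and Lig1 were called in all 3 of these fits.

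The labelled cell type was checked with marker genes. All 10 markers of c-Kit+ myeloid progenitors were present, and they summed to 4246 to 10409 TPM in D/F and 4485 to 6679 TPM in T/F under DMSO, and to 1028 to 4409 TPM and 1855 to 3155 TPM with CCS1477. Of these 10, 1 fell in D/F and 6 in T/F, among them Myb, with log2 fold changes of -2.32 and -1.61 (limma adjusted p = 0.0043 and 0.000933). With the mouse as a block, 8 of the 10 fell in each genotype and 1 was higher in T/F. Of all genes, 6.51% fell in D/F and 17.6% in T/F, and with the block 18% and 22.9%. Higher were 5.14% and 25.8% of all genes, and with the block 21.4% and 31.2%. These shares stand beside the marker counts that follow too. Of the macrophage markers, 3 of 3 tested in D/F and 2 of 4 in T/F fell, from sums of 16 to 22.3 and 19.3 to 32.1 TPM to sums of 2.72 to 4.31 and 5.93 to 12.3 TPM. Of the 4 megakaryocyte markers, 2 fell in T/F and 0 in D/F (4 and 3 with the mouse as a block), and their sums were 34.9 to 212 TPM and 49.4 to 56.6 TPM under DMSO and 20.1 to 65.4 TPM and 32.7 to 35.2 TPM with CCS1477. Of the 6 neutrophil markers, 1 fell in D/F and 0 in T/F, and with the block 2 in each genotype, where 1 more was higher in T/F. T cell markers summed to at most 25.7 TPM in any library, and 0 of them passed in either genotype. The 2 B cell markers analysed, Cd79b and Ighm, summed to at most 57.9 TPM under DMSO and 131 TPM with CCS1477, with 1 higher and 1 lower in T/F and 0 called in D/F (1 lower with the block). The defining markers Cd3e, Cd3g, Trac, Cd79a, Ms4a1 and C1qa were not analysed here, and Ppbp was listed at 0 in at least 1 D/F library. The part of these markers in the replication genes' values was not tested.

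Before the members are taken by role, the promoters of those that moved are shown, since the genes that fell and those that rose could be set side by side for letters they hold. RefSeq promoter windows of GRCm38.p6, 250 bases before to 50 after a transcription start, matched 36 of the 44 members with 44 windows, and Gmnn, Mcm4, Gins1, Gins2, Gins4, Prim2, Pole and Rfc2 had no entry. The E2F-type letters TTTCCCGC or TTTGGCGC, on either strand, stood in 13 of the 44 windows (29.5%), beside 514 of all 32851 windows (1.56%). They stood in 4 of the 9 members that fell in T/F (Cdc6, Cdt1, Mcm5 and Pold1), in 0 of the 6 with an entry among the 8 that rose, and in 9 of the 21 with an entry among those not called. The CCAAT letters, on either strand, stood in 56.8% of the members' windows and in 37.4% of all windows, and among genes with an entry in 6 of 9 that fell and 4 of 6 that rose. The E-box letters CACGTG stood in 15.9% of the members' windows and 7.15% of all windows, in 0 of 9 that fell and in 1 of 6 that rose, Lig1. No capitalised run below overlaps another. The letters were chosen with the results known, and a match is not a site.

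Shown are upstream windows, 5′ to 3′ on the strand of the gene and without annotated exons, of Cdc6 and Mcm5, which fell and hold E2F-type letters, and of Ticrr, which rose and holds only CCAAT. Capitals mark the E2F-type letters (GCGGGAAA and GCGCCAAA are those of TTTCCCGC and TTTGGCGC on the opposite strand) and CCAAT. Cdc6 lies at chr11:98907982-98908150, Mcm5 at chr8:75109259-75109508 and Ticrr at chr7:79659946-79660195, all on the plus strand of GRCm38. The Cdc6 window lies inside an intron of the GENCODE gene model, and the other windows lie upstream of theirs.
Cdc6: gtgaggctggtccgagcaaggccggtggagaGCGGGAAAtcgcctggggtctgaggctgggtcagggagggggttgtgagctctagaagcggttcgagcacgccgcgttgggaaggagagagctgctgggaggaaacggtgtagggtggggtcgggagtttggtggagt
Mcm5: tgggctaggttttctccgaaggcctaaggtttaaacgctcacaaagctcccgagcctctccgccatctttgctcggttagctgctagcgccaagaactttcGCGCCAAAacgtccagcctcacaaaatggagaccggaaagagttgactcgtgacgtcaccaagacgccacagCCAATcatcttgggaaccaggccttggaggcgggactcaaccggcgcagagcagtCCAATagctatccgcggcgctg
Ticrr: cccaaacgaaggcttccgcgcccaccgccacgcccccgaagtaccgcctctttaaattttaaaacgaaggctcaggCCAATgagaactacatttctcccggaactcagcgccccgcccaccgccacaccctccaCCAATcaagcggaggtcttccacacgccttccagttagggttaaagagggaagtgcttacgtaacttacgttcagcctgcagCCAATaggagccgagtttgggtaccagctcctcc
In Cdc6 the letters begin 138 bases before the start. In Mcm5 the E2F-type letters begin 149 bases before it and the CCAAT letters 77 and 22 bases before it. In Ticrr the CCAAT letters begin 174, 116 and 34 bases before it.

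Within the origin recognition complex, the 6-subunit machine that marks origins, Orc1 and Orc2 fell in T/F and 0 of the other 4 subunits passed. Orc2 (chr1:58462771-58505109, minus strand) was at 50.5, 39.1 and 62 TPM under DMSO and 27.3, 29.9 and 41.2 TPM with CCS1477 in D/F. The T/F levels were 63.8, 60.6 and 54.4 TPM under DMSO and 34.2, 33.3 and 35 TPM with CCS1477. Every T/F library with CCS1477 was below every T/F DMSO library, and in D/F the library of mouse 3 with CCS1477 stood above the DMSO library of mouse 2, although the level went down in each of the 3 mice. The log2 fold change of Orc2 was -0.78 ± 0.078 in T/F, where it fell by 42.7% (limma adjusted p = 0.00112), and -0.61 ± 0.24 in D/F (limma adjusted p = 0.148, and adjusted p = 0.0275 with the mouse as a block). Orc1, an ATPase subunit, was at 34.3, 31.5 and 34.1 TPM under DMSO and 21.8, 20.6 and 21.3 TPM with CCS1477 in T/F and fell by 36.2% there, with a log2 fold change of -0.62 ± 0.064 (limma adjusted p = 0.00123). In D/F it was at 35.1, 27.8 and 36.8 TPM under DMSO and 22.7, 40.0 and 26.2 TPM with CCS1477. The D/F groups overlapped, because mouse 2 moved up while mice 1 and 3 moved down, and the log2 fold change was -0.19 ± 0.25 (limma adjusted p = 0.653) with mouse 2 and -0.54 without it (limma adjusted p = 0.0477). Orc6, a subunit needed for MCM loading that binds DNA by a TFIIB-like fold, had the smallest mean response of the 6 and was at 37.1, 31.4 and 44.3 TPM under DMSO and 41, 29.4 and 46.4 TPM with CCS1477 in D/F. T/F libraries held 39.9, 39.6 and 38.1 TPM under DMSO and 43.4, 42.5 and 42 TPM with CCS1477. Its log2 fold changes were 0.038 ± 0.23 and 0.12 ± 0.057 (limma adjusted p = 0.931 and 0.147), and the groups overlapped in D/F and did not in T/F. Orc3, Orc4 and Orc5 had log2 fold changes from -0.22 to 0.17 in D/F and from -0.16 to 0.12 in T/F, and 0 of these 3 were called in the main fits.

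Both helicase loaders fell in T/F, and geminin, the inhibitor of Cdt1, was higher in all 6 mice without passing the unblocked test. Cdt1 (chr8:122568015-122573554, plus strand), which escorts MCM2-7 to the origin, was at 73.9, 58.5 and 80.4 TPM under DMSO and 54.5, 34.4 and 57.4 TPM with CCS1477 in D/F. In T/F it had 74.3, 77.9 and 73.5 TPM under DMSO and 60.7, 62.4 and 57.1 TPM with CCS1477. In both genotypes every CCS1477 library lay below every DMSO library. Its log2 fold change in D/F was -0.55 ± 0.25 (limma adjusted p = 0.188, adjusted p = 0.0224 with the mouse as a block). In T/F the value was -0.32 ± 0.065, and Cdt1 fell by 20.2% (limma adjusted p = 0.0105). Cdc6, the ATPase that joins the origin complex to load the ring, stood at 55.7, 33.2 and 55.1 TPM under DMSO and 45.6, 16.3 and 43.2 TPM with CCS1477 in D/F. T/F libraries held 51.6, 52.4 and 49.5 TPM under DMSO and 42.6, 41.3 and 37.3 TPM with CCS1477. It fell by 21.1% in T/F (limma adjusted p = 0.0138), and in D/F mouse 2 had the lowest value in both conditions, with a log2 fold change over the 3 mice of -0.54 ± 0.43 (limma adjusted p = 0.446). Gmnn (chr13:24751845-24761923, minus strand) was at 59.4, 37.1 and 63.1 TPM under DMSO and 74.6, 39.7 and 78.1 TPM with CCS1477 in D/F. For T/F the levels were 68.8, 72.6 and 60.7 TPM under DMSO and 83.4, 83.1 and 70.1 TPM with CCS1477. The groups overlapped in both genotypes, with log2 fold changes of 0.24 ± 0.33 (limma adjusted p = 0.674) and 0.22 ± 0.11 (limma adjusted p = 0.14, adjusted p = 0.0259 with the mouse as a block).

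The ratio of Cdt1 to Gmnn TPM put the opposite movements into 1 number per library. Under DMSO the D/F mice had 1.24, 1.58 and 1.27 and the T/F mice 1.08, 1.07 and 1.21. With CCS1477 the D/F mice had 0.730, 0.867 and 0.735 and the T/F mice 0.728, 0.75 and 0.815. All 6 DMSO libraries were above 1 and all 6 CCS1477 libraries below it, with no overlap. The means were 1.37 ± 0.184 and 0.777 ± 0.0777 (SD, n = 3) in D/F and 1.12 ± 0.0774 and 0.764 ± 0.0451 (SD, n = 3) in T/F. The pair was put into a ratio after the values of both genes had been seen, so these are a description. An exact permutation test gave p = 0.1 in each genotype, the smallest it can give for 3 against 3 libraries. No weight is put on that test.

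The MCM2-7 genes encode the ring-shaped helicase, and their summed level was between 868 and 1084 TPM in the DMSO libraries. The T/F sum was 1045 ± 43.6 TPM in the 3 DMSO libraries and 974 ± 27.1 TPM in the 3 treated ones (mean ± SD). In D/F it was 984 ± 105 TPM and 793 ± 249 TPM (SD, n = 3), and the CCS1477 library of mouse 2 was lowest at 512 TPM, with the others at 883 and 986 TPM. Mcm4 was the lowest of the 6 subunits in all 12 libraries, Mcm6 the highest in all 6 DMSO libraries, and Mcm7 the highest in 5 of the 6 CCS1477 libraries.

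**Figure D2:**
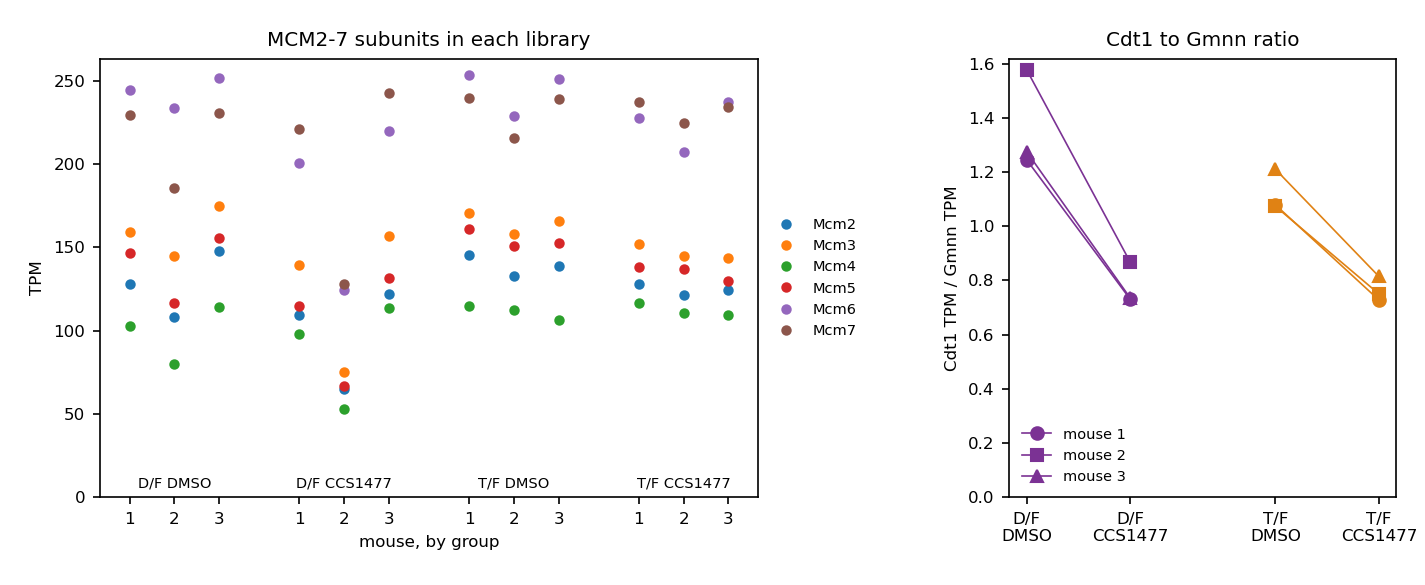
Left, TPM (y axis) of each MCM2-7 subunit in each library (x axis, mouse number within group), with Mcm6 and Mcm7 on top, Mcm4 at the bottom, and all 6 subunits low in D/F mouse 2 with CCS1477. Right, the ratio of Cdt1 to Gmnn TPM (y axis) in each library by group, lines joining the cultures of 1 mouse, with DMSO libraries between 1.07 and 1.58 and CCS1477 libraries between 0.728 and 0.867.

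Mcm5 was the only MCM2-7 gene called in the main fits within a genotype, and passed in T/F. With a trend in the fit, Mcm2 and Mcm3 passed in T/F too. Its level was 161, 151 and 152 TPM under DMSO and 138, 137 and 129.7 TPM with CCS1477 there and 146, 117 and 155 TPM under DMSO and 115, 66.9 and 132 TPM with CCS1477 in D/F. The T/F groups did not overlap and the D/F groups did, with log2 fold changes of -0.20 ± 0.062 (limma adjusted p = 0.047) and -0.46 ± 0.28 (limma adjusted p = 0.324). The T/F call of Mcm5 was lost when libraries were rescaled to the same median gene, at -0.28 (adjusted p = 0.0551), and under quantile normalization, at -0.10 (adjusted p = 0.226). Mcm2, Mcm3, Mcm5 and Mcm6 were lower with CCS1477 in all 6 mice. Mcm7 had the smallest mean response of the 6 and was at 229, 185 and 230.3 TPM under DMSO and 221, 128 and 242 TPM with CCS1477 in D/F. For T/F the levels were 239.7, 215 and 239 TPM under DMSO and 237, 224 and 234 TPM with CCS1477, with log2 fold changes of -0.17 ± 0.27 and 0.0052 ± 0.070 (limma adjusted p = 0.72 and 0.959). Its sign in T/F turned when libraries were rescaled to the same median gene (-0.077). Over the other 4 subunits, the log2 fold changes ran from -0.46 to -0.22 in D/F and from -0.16 to 0.0076 in T/F, 0 called in the main fits.

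The factors that turn the loaded ring into a moving helicase divided, with Mcm10 lower and Gins4 and Ticrr higher in T/F. Mcm10 (chr2:4989714-5012791, minus strand), which binds the assembled helicase as it is activated, was at 65.2, 70.3 and 92 TPM under DMSO and 43.7, 48 and 67.4 TPM with CCS1477 in D/F. Its T/F values were 96.9, 85.1 and 83.7 TPM under DMSO and 70.3, 64.8 and 64.2 TPM with CCS1477. Its level went down in each of the 6 mice, by log2 ratios between -0.57 and -0.38, with overlap in D/F, where DMSO libraries differed among mice, and none in T/F. It fell in T/F, with a log2 fold change of -0.41 ± 0.083 (limma adjusted p = 0.0111). For D/F the value was -0.52 ± 0.23 (limma adjusted p = 0.185, adjusted p = 0.0165 with the mouse as a block). Gins4 (Sld5), a GINS subunit of the active helicase, was at 51.5, 43.3 and 52.3 TPM under DMSO and 59.6, 50.3 and 64.4 TPM with CCS1477 in D/F. In T/F libraries it stood at 47.3, 44.3 and 45.7 TPM under DMSO and 62.3, 61.1 and 63.1 TPM with CCS1477. It was higher in all 6 mice, rose by 35.8% in T/F, with a log2 fold change of 0.43 ± 0.059 (limma adjusted p = 0.00267), and in D/F had 0.24 ± 0.17 (limma adjusted p = 0.385). Ticrr (treslin), which brings Cdc45 to the ring when S phase kinase is active, was at 21.9, 17.7 and 21.8 TPM under DMSO and 26.3, 20.4 and 28 TPM with CCS1477 in D/F. The T/F levels were 22.9, 21.6 and 20.5 TPM under DMSO and 29.7, 27 and 26.9 TPM with CCS1477. It too was higher in all 6 mice and rose by 28.7% in T/F (limma adjusted p = 0.0124, and adjusted p = 0.0881 after rescaling to the median gene), and in D/F its log2 fold change was 0.27 ± 0.18 (limma adjusted p = 0.377). The GINS subunits did not move as 1 unit: Gins3 was at 13, 13.7 and 12.7 TPM under DMSO and 12.7, 12 and 13.7 TPM with CCS1477 in D/F. In T/F it had 15.5, 13.1 and 14.9 TPM under DMSO and 14.9, 10.8 and 13.1 TPM with CCS1477, with log2 fold changes of -0.035 ± 0.14 and -0.16 ± 0.13 (limma adjusted p = 0.894 and 0.349). Gins1 had -0.35 and -0.27, Gins2 0.19 and 0.14 and Cdc45 -0.067 and -0.20 in D/F and T/F, 0 called without the block. With the block, Cdc45 passed in T/F (adjusted p = 0.0399) and Gins1 over both genotypes.

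In the polymerase alpha and primase complex, which lays the RNA-DNA primers, both primase subunits rose in T/F and the polymerase subunits did not pass. Prim1, the catalytic subunit, was at 52.9, 51.7 and 57.6 TPM under DMSO and 66.7, 54.7 and 76.9 TPM with CCS1477 in D/F. T/F libraries held 51.4, 52.6 and 53.5 TPM under DMSO and 73.1, 71.2 and 68.3 TPM with CCS1477. Prim2, the large subunit, was at 35.3, 33 and 31.3 TPM under DMSO and 40.7, 37.1 and 45.4 TPM with CCS1477 in D/F. For T/F the levels were 37.1, 33.9 and 32.9 TPM under DMSO and 48.3, 44.9 and 45.5 TPM with CCS1477. For Prim2 all CCS1477 libraries were above all DMSO libraries in both genotypes, and for Prim1 in T/F but not in D/F. In T/F, Prim1 rose by 35% and Prim2 by 33.4%, with log2 fold changes of 0.43 ± 0.059 and 0.41 ± 0.073 (limma adjusted p = 0.00291 and 0.0068). The D/F values were 0.27 ± 0.17 and 0.30 ± 0.15 (limma adjusted p = 0.339 and 0.237). Pola2, the accessory subunit, was at 69.1, 64 and 74.6 TPM under DMSO and 76.7, 61.5 and 86.9 TPM with CCS1477 in D/F. Its T/F values were 74.6, 75 and 72.6 TPM under DMSO and 77.9, 78 and 74.6 TPM with CCS1477, with overlap in both. Its log2 fold changes were 0.10 ± 0.18 and 0.052 ± 0.057 (limma adjusted p = 0.746 and 0.496), and the sign in T/F turned when libraries were rescaled to the same median gene (-0.029). Pola1, the catalytic subunit of polymerase alpha, was lower in all 6 mice, with log2 fold changes of -0.20 and -0.13, not called.

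Polymerase delta, which extends the lagging strand, fell in T/F at 2 of its 3 listed subunits, and the 2 listed subunits of polymerase epsilon did not pass. Pold2 (chr11:5872180-5878292, minus strand), the accessory subunit that holds the complex together, was at 83.1, 56.7 and 114 TPM under DMSO and 53, 36.4 and 62.8 TPM with CCS1477 in D/F. In T/F libraries it stood at 86.7, 80.8 and 89.9 TPM under DMSO and 55.8, 49.9 and 55 TPM with CCS1477. The level went down in all 6 mice by log2 ratios between -0.85 and -0.63, and the groups overlapped in D/F, where DMSO libraries ran from 56.7 to 114 TPM, and not in T/F. It fell by 37.6% in T/F, with a log2 fold change of -0.67 ± 0.077 (limma adjusted p = 0.00167), and in D/F had -0.70 ± 0.32 (limma adjusted p = 0.191, adjusted p = 0.0111 with the mouse as a block). Pold1, the catalytic subunit, stood at 105, 100.3 and 112 TPM under DMSO and 95, 81.7 and 82.6 TPM with CCS1477 in T/F and fell by 18.2% (limma adjusted p = 0.0395, and adjusted p = 0.0723 under quantile normalization). In D/F its log2 fold change was -0.28 ± 0.19 (limma adjusted p = 0.371). Pold3, the subunit that links the enzyme to the clamp, was at 141, 180.4 and 131 TPM under DMSO and 113, 152 and 157 TPM with CCS1477 in D/F. The T/F levels were 139, 159.9 and 147 TPM under DMSO and 167, 157 and 164 TPM with CCS1477. Its log2 fold changes were -0.10 ± 0.21 and 0.13 ± 0.076 (limma adjusted p = 0.779 and 0.208), with a D/F sign that turned under quantile normalization (0.034). Pole and Pole2, of the leading-strand polymerase epsilon, had values of 0.19 and 0.043 for D/F and of 0.24 and 0.098 for T/F on the log2 scale, and Pole passed in T/F with the mouse as a block (adjusted p = 0.0196). The small subunits of both enzymes, which are not among the 44 and are given here after their values were seen, were called in T/F: Pold4 of polymerase delta rose (0.53 ± 0.078, limma adjusted p = 0.00354), and of polymerase epsilon Pole4 rose (0.43 ± 0.092, limma adjusted p = 0.0132) and Pole3 fell (-0.31 ± 0.075, limma adjusted p = 0.0201). In D/F their log2 fold changes were 0.29 ± 0.21, 0.41 ± 0.15 and -0.43 ± 0.17, with none called without the block (limma adjusted p = 0.386, 0.116 and 0.141). With the mouse as a block, Pole4 and Pole3 passed in D/F too (adjusted p = 0.0481 and adjusted p = 0.0352).

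Pcna, the sliding clamp, and Rfc5, a clamp loader subunit, rose in T/F. Pcna (chr2:132249162-132253314, minus strand) had the highest level of the 44 genes, at 415, 335 and 416 TPM under DMSO and 639, 372 and 688 TPM with CCS1477 in D/F. In T/F it had 418, 439 and 417 TPM under DMSO and 596, 549 and 567 TPM with CCS1477. It was higher in all 6 mice, but D/F mouse 2 moved less than the others, and its CCS1477 library lay below the DMSO libraries of mice 1 and 3. The rise in T/F was 34.4%, with a log2 fold change of 0.42 ± 0.063 (limma adjusted p = 0.0037). In D/F the log2 fold change was 0.50 ± 0.27 (limma adjusted p = 0.265), and 0.67 without mouse 2 (limma adjusted p = 0.0261). The annotation holds 2 processed pseudogenes of Pcna, Pcna-ps1 and Pcna-ps2, which were not analysed here, so how the counting divided reads among the copies is uncertain. Rfc5 (chr5:117378103-117389047, minus strand) was at 67.6, 72.5 and 63.6 TPM under DMSO and 105, 70.8 and 126 TPM with CCS1477 in D/F. T/F libraries held 71, 66.9 and 78.4 TPM under DMSO and 107, 107 and 107 TPM with CCS1477. Its 3 T/F libraries with CCS1477 were within 1 TPM of each other and above all DMSO libraries, while D/F mouse 2 stayed between 70 and 73 TPM in both conditions. It rose by 48.3% in T/F, with a log2 fold change of 0.57 ± 0.076 (limma adjusted p = 0.00261), and had 0.52 ± 0.23 in D/F (limma adjusted p = 0.192), and 0.80 without mouse 2 (limma adjusted p = 0.0293). The other loader subunits did not pass. Rfc4 was at 61.9, 55.5 and 57.2 TPM under DMSO and 72, 36.4 and 64 TPM with CCS1477 in D/F. For T/F the levels were 63.6, 63.7 and 60.4 TPM under DMSO and 63.3, 56.1 and 57.8 TPM with CCS1477, with overlap in both and log2 fold changes of -0.074 ± 0.27 and -0.083 ± 0.071 (limma adjusted p = 0.886 and 0.385). Rfc1, Rfc2 and Rfc3 had log2 fold changes from -0.39 to 0.11 in D/F and from -0.12 to 0.14 in T/F.

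Of the enzymes that mature Okazaki fragments, the ligase Lig1 rose in T/F and the flap nuclease Fen1 had values below 0. Lig1 was at 92.5, 80.5 and 92.2 TPM under DMSO and 119.8, 69.6 and 121 TPM with CCS1477 in D/F. Its T/F values were 98.7, 94.4 and 96.1 TPM under DMSO and 132, 126 and 135 TPM with CCS1477. The T/F groups did not overlap, and in D/F mice 1 and 3 moved up and mouse 2 down. It rose by 35.6% in T/F, with a log2 fold change of 0.44 ± 0.060 (limma adjusted p = 0.00276), and had 0.18 ± 0.25 in D/F (limma adjusted p = 0.669). Fen1 was at 77.5, 48.6 and 72.4 TPM under DMSO and 72, 36 and 82.7 TPM with CCS1477 in D/F. In T/F libraries it stood at 96.6, 86.8 and 79.6 TPM under DMSO and 77.8, 74.6 and 67.1 TPM with CCS1477. The T/F groups did not overlap, with a log2 fold change of -0.26 ± 0.10 (limma adjusted p = 0.0855, adjusted p = 0.0192 with the mouse as a block), and in D/F the value was -0.11 ± 0.35 (limma adjusted p = 0.868).

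**Figure D3:**
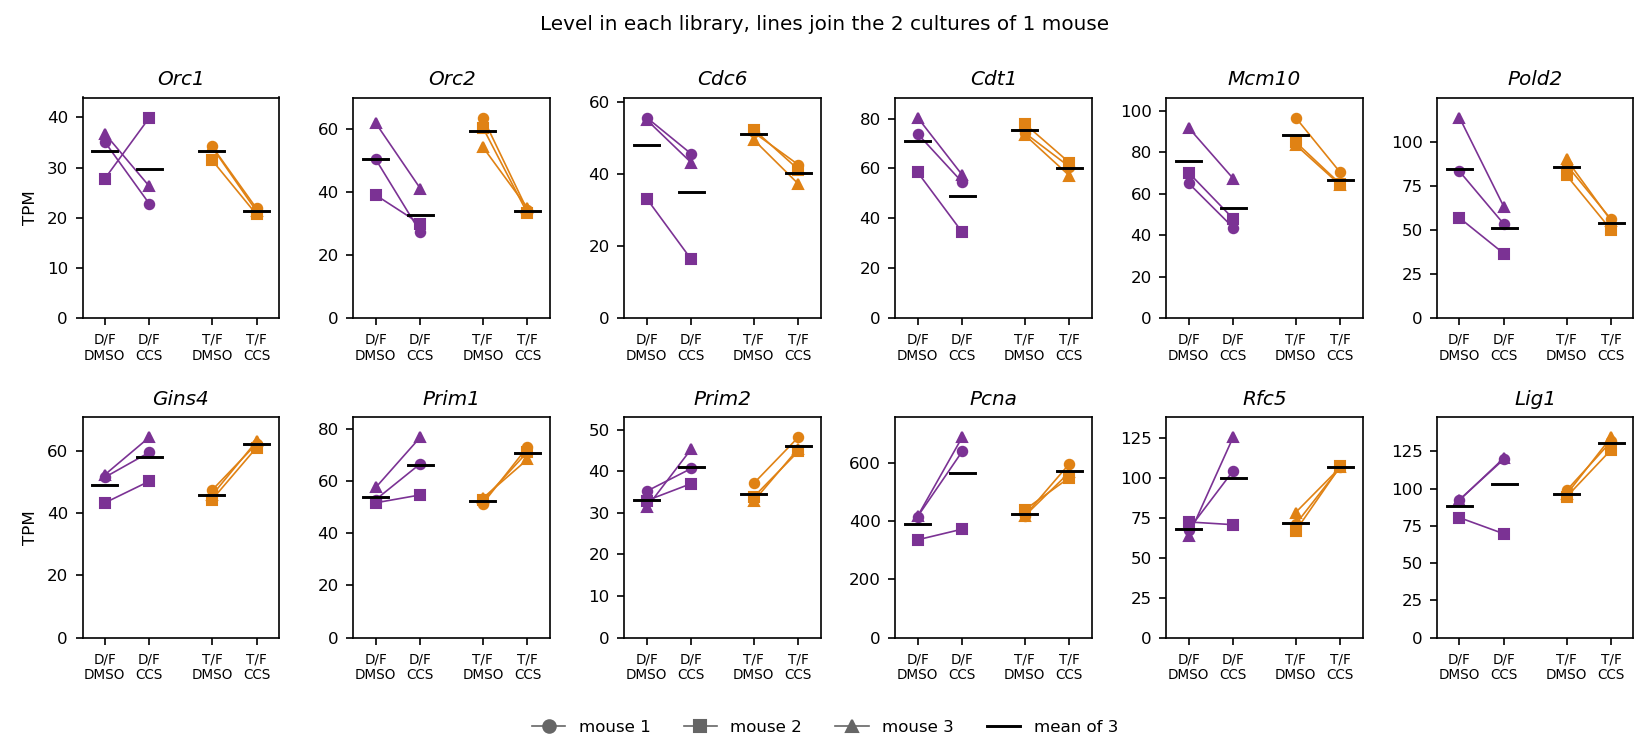
TPM (y axis, from 0) of 12 of the 17 members called in T/F, in each library by group (x axis). Lines join the DMSO and CCS1477 cultures of 1 mouse, and black bars mark the mean of 3. The upper 6 genes were picked as called lower in T/F and the lower 6 as called higher. Their directions in T/F (orange), down and up in every mouse, therefore follow from that choice. In D/F (purple) mouse 2 went against the others for Orc1, Rfc5 and Lig1.

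The heterotrimer RPA, which coats single-stranded DNA at the fork, split by subunit. Rpa2, the phosphorylated middle subunit, was at 55, 60.7 and 63.7 TPM under DMSO and 51.6, 35.7 and 55 TPM with CCS1477 in D/F. The T/F levels were 65, 57.3 and 62.3 TPM under DMSO and 51.1, 44.5 and 51.3 TPM with CCS1477. Every CCS1477 library was below every DMSO library of its genotype, although in D/F the closest of them differ by less than the rounding. It fell by 20.4% in T/F, with a log2 fold change of -0.32 ± 0.088 (limma adjusted p = 0.0285), and had -0.35 ± 0.20 in D/F (limma adjusted p = 0.297). Rpa3, the smallest subunit, was at 87, 66.1 and 79.6 TPM under DMSO and 97.2, 70.4 and 92.6 TPM with CCS1477 in D/F. In T/F it had 83, 82.6 and 79.8 TPM under DMSO and 92.4, 93.9 and 93.6 TPM with CCS1477. It was higher in all 6 mice and rose by 14% in T/F, with a log2 fold change of 0.19 ± 0.055 (limma adjusted p = 0.0376), and had 0.15 ± 0.19 in D/F (limma adjusted p = 0.639). After rescaling to the median gene the T/F value of Rpa3 was 0.11 (adjusted p = 0.327). Rpa1, the large DNA-binding subunit, was at 114, 111 and 122 TPM under DMSO and 129, 109 and 154 TPM with CCS1477 in D/F. T/F libraries held 135, 122 and 131 TPM under DMSO and 147, 148 and 143 TPM with CCS1477. Its T/F groups did not overlap, yet it was not called in the main fits, with log2 fold changes of 0.16 ± 0.17 and 0.18 ± 0.064 (limma adjusted p = 0.585 and 0.072).

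The CAF-1 subunits, which deposit new histones H3 and H4 behind the fork, did not pass in either genotype. Chaf1a was at 54, 41.8 and 57.7 TPM under DMSO and 54.8, 31.6 and 59.6 TPM with CCS1477 in D/F. For T/F the levels were 55, 55.1 and 52.5 TPM under DMSO and 58.9, 57.6 and 55.3 TPM with CCS1477, and Chaf1b was at 57.1, 65 and 58.6 TPM under DMSO and 51.1, 44.2 and 64.6 TPM with CCS1477 in D/F. Its T/F values were 56.7, 51.7 and 61.3 TPM under DMSO and 61.5, 56.8 and 60.9 TPM with CCS1477. D/F mouse 2 had the lowest CCS1477 value of the 3 mice for both genes. The log2 fold changes were -0.11 ± 0.28 and -0.19 ± 0.18 for D/F, then 0.078 ± 0.060 and 0.079 ± 0.084 for T/F (limma adjusted p = 0.834, 0.536, 0.339 and 0.48). Both T/F values turned to just below 0 when libraries were rescaled to the same median gene (-0.0025 and -0.0014).

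Taken by role, the calls in T/F were 4 lower and 0 higher among the 9 genes of origin recognition and helicase loading, 1 lower and 0 higher of 6 MCM2-7 genes, 1 lower and 2 higher of 7 activation factors, and 3 lower and 6 higher among the 22 genes of polymerases, clamp, fragment joining, RPA and CAF-1. Over all genes tested in T/F, 17.6% were called lower and 25.8% higher. The difference between these roles was not tested. Across mice, 15 members were lower in all 6 (24.2% of all genes were) and 7 were higher in all 6 (31.8% of all genes were). The 7 were Gmnn, Gins4, Ticrr, Prim1, Prim2, Pcna and Rpa3. Groups that did not overlap were counted for 15 members lower and 14 higher in T/F, beside 22.6% and 33.5% of all genes, and for 3 lower (Cdt1, Mcm6 and Rpa2) and 1 higher (Prim2) in D/F, beside 16.7% and 19.9% of all genes. The median within-mouse log2 ratio over the members was -0.043, -0.28 and 0.079 for D/F mice 1, 2 and 3, and -0.0060, -0.029 and -0.044 for T/F mice 1, 2 and 3, so that D/F mouse 2 lay lowest of the 6.

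**Figure D4:**
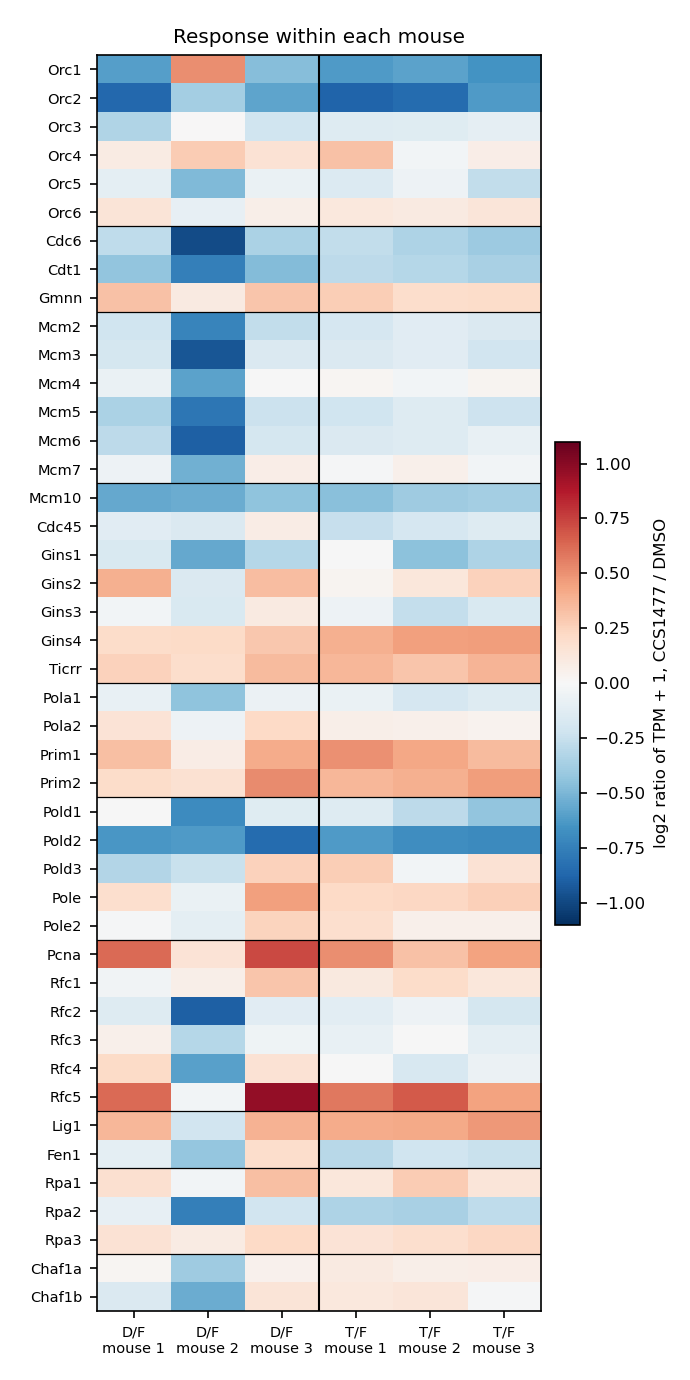
Log2 ratio of TPM + 1, CCS1477 to DMSO, for each of the 44 genes (rows, by role) in each of the 6 mice (columns), blue below 0 and red above. Orc2, Cdt1, Mcm10 and Pold2 are blue and Gins4, Ticrr, Prim1, Prim2 and Pcna red in all 6 columns, and D/F mouse 2 is bluest, with 33 of 44 genes below 0.

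Under DMSO, no replication gene passed the test between the genotypes. Of the 44, 34 had a higher mean log2 level in T/F than in D/F, with a median difference of 0.092 and a range from -0.16 to 0.42. Over all genes, 6446 of the 15265 tested were higher in T/F, with a median of -0.039. The D/F mice differed here: against the other 5 DMSO libraries, the members' median was -0.24 in mouse 2. In D/F mice 1 and 3 it was -0.0089 and 0.061. The comparison called 0 members, where 0.0328% of all genes passed, and 0 members had an unadjusted p under 0.05, where 6.15% of all genes did. The 95% intervals of these differences lay within 2-fold for all 44. Levels ran from Gins3, at a mean of 13.1 ± 0.495 TPM in D/F and 14.5 ± 1.25 TPM in T/F (SD, n = 3), to Pcna, at 389 ± 46.4 TPM in D/F and 425 ± 12 TPM in T/F. The coefficient of variation among the 3 DMSO libraries had a median over the members of 12.1% for D/F and 5.15% for T/F, and among the CCS1477 libraries of 23.4% and 4.24%.

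Other genes of replication and of the G1 to S transition were followed as fixed lists. Of 29 further replication factors, 0 were called lower and 1 higher in D/F, and 4 lower and 9 higher in T/F, with medians of 0.058 and 0.072. Over all genes, 6.51% were lower and 5.14% higher for D/F, and for T/F 17.6% and 25.8%. The gene called in both genotypes was Donson, which helps to assemble the helicase at origins, at 24.3, 21.8 and 24.6 TPM under DMSO and 47.6, 42.6 and 53.1 TPM with CCS1477 in D/F. In T/F libraries it stood at 29, 28 and 27.8 TPM under DMSO and 42.8, 40.3 and 43.7 TPM with CCS1477. It rose in every mouse, with log2 fold changes of 0.98 ± 0.15 and 0.57 ± 0.062 (limma adjusted p = 0.0158 and 0.00143). Of 25 regulators and E2F-linked genes of G1 and S phase entry, 3 were called lower and 2 higher in D/F, and 7 lower and 12 higher in T/F, where the list's median was 0.30 and 17.6% and 25.8% of all genes were called.

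Those called the same way in both genotypes were Cdk6, Ccnd2 and E2f4, which fell, and Cdkn1b and E2f7, which rose. Cdk6, the kinase that starts the phosphorylation of the retinoblastoma protein, was at 236, 295 and 244 TPM under DMSO and 40.4, 45.9 and 51.4 TPM with CCS1477 in D/F. The T/F levels were 232, 199 and 273 TPM under DMSO and 61.7, 58.7 and 84.9 TPM with CCS1477. Its log2 fold changes were -2.47 ± 0.17 and -1.77 ± 0.18 (limma adjusted p = 0.0031 and 0.0012), which is larger than that of any of the 44 members. Ccnd2, a D-type cyclin that is the partner of that kinase, had -1.59 ± 0.22 and -1.40 ± 0.10 (limma adjusted p = 0.0124 and 0.00052), and E2f4, an E2F of repressor complexes, -0.82 ± 0.19 and -0.58 ± 0.056 (limma adjusted p = 0.0399 and 0.00102). Cdkn1b, the kinase inhibitor p27, had 0.90 ± 0.18 and 0.97 ± 0.083 (limma adjusted p = 0.0284 and 0.000774), and E2f7, an atypical repressor E2F, 0.80 ± 0.19 and 0.86 ± 0.10 (limma adjusted p = 0.0417 and 0.0019). Myc, a growth regulator whose targets the study followed, was at 300.3, 468 and 367 TPM under DMSO and 20.7, 17.8 and 19 TPM with CCS1477 in D/F. In T/F it had 265, 229.5 and 311 TPM under DMSO and 24.9, 19.3 and 27.1 TPM with CCS1477. It fell in every mouse, with log2 fold changes of -4.21 ± 0.20 and -3.45 ± 0.16 (limma adjusted p = 0.00131 and 0.000311), against at most 0.78 in absolute size for any of the 44 members.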

How the data were processed

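Gene-level TPM of 12 libraries were analysed, with groups, mouse numbers and doses from the sample labels. The authors deposited these TPM values per gene and library, and the submitters' processing notes name kallisto and mm10 (GRCm38). The study's methods name AltAnalyze for the expression analysis. The annotation release used for counting is not given in the sources used here. RNA integrity above 8 was required, the libraries were stranded and paired-end, and the labels name both ribosomal depletion and an mRNA kit, which differ in the RNA they keep. The lowest of the genes' highest values was 2.00 TPM, so genes that were low in every library are not among the 15651. Because TPM hold no counts of reads, the depth is unknown, no interval for counting error was given, and the precision is the spread among 3 mice. TPM are relative, so a shift of total RNA per cell would not show.

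Log2(TPM + 1) values were tested with limma 3.58.1 (R 4.3.3), without a trend, two-sided, with Benjamini-Hochberg adjustment over all genes whose mean reached 1 TPM in a group compared, which all 44 members passed. Fold changes of low genes are understated on this scale, and each ± beside a log2 fold change is its standard error. Called genes had an adjusted p under 0.05. The comparisons set CCS1477 against DMSO in each genotype, over both with genotype as a covariate, and as an interaction between genotype and treatment, and set the genotypes against each other under DMSO. Fits share libraries, so their results are not independent of each other. The mouse as a block was fitted beside these: the labels give each mouse's number, and same-mouse deviations from the group means correlated by 0.54, 0.67 and 0.54 for D/F mice and by 0.38, 0.35 and 0.50 for T/F mice, against at most 0.14 between different mice. Scripts were tested on simulated data.

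The members, the lists and the promoter letters were chosen with earlier results of these data known. All members were reported, with the value in every library for those with the largest and the smallest mean response in each of 10 roles and those that rose in T/F, and Orc1, Cdc6 and Pold1 were added after their values were seen. In the other lists, genes called the same way in both genotypes are named, up to 3 each way, with Myc as a regulator the study named. Positions are from the GENCODE annotation of GRCm38. Alternatives were the pseudocount (0.1), the filter (5 TPM or none), the block, a fit of all 4 groups, rescaling to the median gene, quantile normalization, a trend, a 2-fold limit and leaving out each mouse.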

Additional observations from a re-analysis of the deposited data

How the results depend on the processing

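Changing the pseudocount, the filter or the trend moved 0 of the members' counts by more than 1.5 times in any comparison. In T/F the trend added Mcm2, Mcm3, Pole, Rfc1 and Rpa1 to the members called, and the filter at 5 TPM added Pole and Rpa1. With the mouse as a replicate block, 4 members were called lower in D/F (18% of all genes). Over both genotypes the block called 12 lower and 11 higher (25.9% and 34.5% of all genes). A fit of all 4 groups with 1 estimate of the spread called 4 lower and 1 higher in D/F (14.4% and 17.5% of all genes), and 2 lower and 4 higher in T/F (10.5% and 13.8%). Requiring more than 2-fold left 0 lower and 0 higher in T/F and over both genotypes. Rescaling to the median gene left 2 higher over both genotypes (23.1% of all genes), called 9 lower and 6 higher in T/F, and moved the members' median in T/F to -0.11. This rescaling turned the signs of Orc6 (-0.0068) and Pole2 (-0.0021) in D/F. In T/F it turned those of Mcm4 (-0.074), Mcm7 (-0.077), Pola2 (-0.029), Chaf1a (-0.0025) and Chaf1b (-0.0014). Quantile normalization called 7 lower and 12 higher in T/F, moved the T/F median to 0.027 and turned Pold3 in D/F (0.034). The block together with leaving out D/F mouse 2 was chosen after seeing the data. In D/F it gave 5 lower and 2 higher (15.2% and 17.8% of all genes). Over both genotypes it gave 14 lower and 12 higher (25.4% and 34.9% of all genes). It turned the signs of Mcm7 (0.011), Gins3 (0.033), Rfc3 (0.0029), Rfc4 (0.19), Fen1 (0.043) and Chaf1a (0.033) in D/F. The causes of these changes were not tested, and a fit without a mouse also has fewer libraries.

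Leaving out each mouse in turn gave 0 to 1 lower and 0 to 2 higher in D/F, 3 to 5 lower and 4 to 6 higher in T/F, and 4 to 14 lower and 4 to 11 higher over both genotypes. Of all genes, 9.47% to 14.5% were lower and 11.5% to 19.2% higher in those T/F fits. Without D/F mouse 2 the shares were 10.8% and 13.8% in D/F and 22.8% and 32.6% over both genotypes. Without a T/F mouse they were 15.9% to 16.3% and 20.4% to 20.8% over both genotypes. The D/F median of the members ran from -0.17 to 0.0068. Ranges by member were taken only for those with the largest or smallest mean response of their role and those that rose in T/F. Among them, signs turned in D/F for Orc6 (-0.013 to 0.10), Mcm7 (-0.29 to 0.011), Gins3 (-0.10 to 0.033), Pold3 (-0.28 to 0.0053), Rfc4 (-0.22 to 0.19), Fen1 (-0.26 to 0.043) and Chaf1a (-0.19 to 0.033), and in T/F for Mcm7 (-0.021 to 0.021), and none of these members was called. Other members could turn too, as Rfc3 did in D/F without mouse 2 (0.0029). The difference between genotypes in response, and the genotypes under DMSO, gave 0 members called under every alternative run, and limits of TPM without read numbers and of 3 mice per group hold for all of them.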

Other observations

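Of 20 listed mitotic genes, 0 were called lower and 3 higher in D/F (6.51% and 5.14% of all genes were), and 0 lower and 16 higher in T/F (25.8% of all genes were called higher there), with medians of 0.31 and 0.44 on the log2 scale beside 0.057 and 0.075 over all genes. With the mouse as a block, 10 were higher in D/F, beside 21.4% of all genes. Those called in both genotypes were Cenpf, Mki67 and Cenpa. Mki67, the proliferation antigen Ki-67, was at 246, 192 and 219.9 TPM under DMSO and 394, 308 and 412 TPM with CCS1477 in D/F, and in T/F at 237, 234 and 187 TPM under DMSO and 449, 412 and 381 TPM with CCS1477. Its log2 fold changes were 0.75 ± 0.18 in D/F and 0.92 ± 0.12 in T/F (limma adjusted p = 0.0476 and 0.0024). Cenpf, a kinetochore protein, had 0.78 ± 0.14 and 0.94 ± 0.10 (limma adjusted p = 0.0249 and 0.00124), and Cenpa, the histone H3 variant of centromeres, 0.61 ± 0.14 and 0.74 ± 0.078 (limma adjusted p = 0.0422 and 0.00133). For all 3 genes, every CCS1477 library stood above every DMSO library of its genotype.

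Of 8 genes that supply deoxynucleotides, 1 was called lower and 0 higher in D/F, and 1 lower and 5 higher in T/F, beside 6.51% and 5.14% of all genes for D/F and 17.6% and 25.8% of them for T/F. The gene that fell in both was Dtymk, thymidylate kinase, which was at 129, 152 and 129 TPM under DMSO and 76.9, 74.7 and 87.3 TPM with CCS1477 in D/F, where the log2 fold change was -0.77 ± 0.15 (limma adjusted p = 0.0287). In T/F its level was 138, 122 and 134 TPM under DMSO and 93.6, 87.9 and 93.6 TPM with CCS1477, and the log2 fold change -0.51 ± 0.073 (limma adjusted p = 0.00315).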
